A study of Homo sapiens
Mus musculus and Homo sapiens with 12 samples.

Results

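A homokaryon library, made from human fibroblasts fused with one another, was set against 2 libraries of unfused human fibroblasts. These 3 libraries, of 12 in the series, were taken by their labels: the homokaryon sample and replicates 1 and 2 of the unfused cells. The series follows the reprogramming of human fibroblasts after fusion with mouse embryonic stem cells. It also holds 6 libraries of such mouse-human heterokaryons, 2 from each of days 1, 2 and 3, and 2 libraries of mouse and human cells grown together without fusion. Polyadenylated RNA was sequenced in every case, and only human transcripts were read here.

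The homokaryon label names human fibroblasts on both sides of the fusion and gives no line, no time after fusion and no agent. The unfused group carries the same cell label and no fusion. The fibroblast line MRC5 is named only for the heterokaryons. The protocol shared by all samples describes sorted heterokaryons, and no source used here says whether the homokaryons were sorted in the same way. The labels do not say that the fibroblast replicates were separate cultures. A homokaryon population can also hold fibroblasts that did not fuse. In bulk RNA, fewer cells of a type and less RNA per cell cannot be told apart.

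A homokaryon is a cell that holds several nuclei of the same kind in a common cytoplasm, made by merging the plasma membranes of like cells. It is the usual control for a heterokaryon, since it passes through fusion without meeting the nucleus of another cell type. Fibroblasts are the connective tissue cells that make collagen and other matrix, contract, and answer injury and infection with cytokines and complement components.

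Values are levels per transcript length and library, called RPKM here, summed over the coding transcripts of a gene. All log2 differences are differences of log2(RPKM + 1), which makes the differences of weakly expressed genes smaller. Because the homokaryon is 1 library, no test was possible and no difference below carries a p-value. A gene was counted as higher or lower where the homokaryon lay 2-fold or more past both fibroblast libraries on that scale. Sequencing depth is unknown, since the tables hold no counts. Each table stops at its own point in accession order, so 2331 genes were covered by all 3 libraries, and 763 of these reached 1 RPKM in at least 1 of them. Fibroblast replicate 2 reached further: 4848 genes were covered by it and the homokaryon, and 2222 were at 1 or more. In this wider set the homokaryon was compared with that library alone. The tables hold no value of 0: a transcript missing before a table's end was taken as 0, and a gene described as taken as 0 is absent from that table.

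The fibroblast libraries lay close together and the homokaryon lay apart from both. Replicates 1 and 2 stood 2-fold or more apart in 17 of 763 genes (2.23%), and their median absolute log2 difference was 0.14. The median absolute log2 difference of the homokaryon was 0.68 from replicate 1 and 0.70 from replicate 2. It was counted as higher in 117 genes (15.3%) and lower in 101 (13.2%). The table of replicate 1 also holds 12219 values that are not on human coding accessions, and without this library the counts were 136 and 128. In the wider set 394 genes (17.7%) were higher and 384 (17.3%) were lower. Every gene counted over 3 libraries is by construction counted in the wider set, so the wider counts do not add support for those genes. A list whose counts lie near these shares is not set apart from the genes at large. The median log2 difference over all genes was 0.13 in the 3-library set and -0.01 in the wider set, and medians below are to be read against these.

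**Figure D1:**
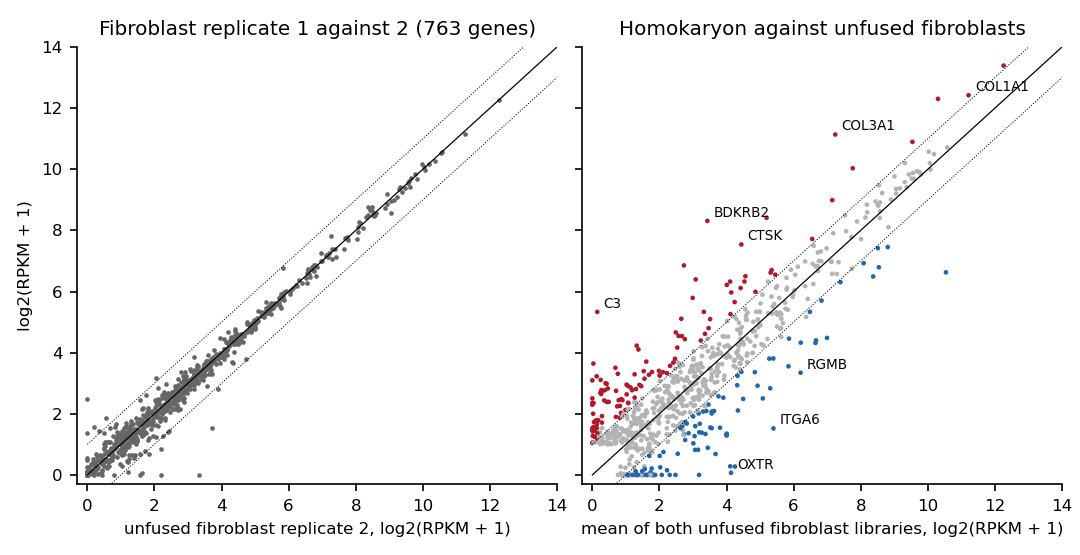
Levels of the 763 genes measured in 3 libraries, as log2(RPKM + 1): fibroblast replicate 1 against replicate 2 on the left, the homokaryon against the mean of both on the right. The solid line marks equality and the dotted lines 2-fold; red and blue points are the 117 genes higher and 101 lower in the homokaryon.

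The libraries carried matrix genes typical of fibroblasts and few markers of other cells. Of 10 fibroblast markers covered, 9 were at 1 or more, among them VIM at 2054 in the homokaryon and 3319 in replicate 2. LUM, a small matrix proteoglycan, was at 0.104 and 0.597. All 5 pluripotency genes covered, SOX2, LIN28B, DPPA5, LEFTY2 and UTF1, were taken as 0 in the homokaryon and replicate 2. Among 6 endothelial markers, CDH5 was taken as 0 in both libraries of the wider set and VWF at 0 in the homokaryon. TEK, an angiopoietin receptor on the same list, stood at 24.3 in the homokaryon, 3.89 in replicate 1 and 5.32 in replicate 2. The summed endothelial list was 24.8 in the homokaryon and 5.82 in replicate 2. Among 8 haematopoietic markers, CD3E, HBB, ITGAM and LCP1 were taken as 0 in both libraries, and LYZ, lysozyme, was at 9.06 against 3.40 and 3.94. The 6 epithelial markers summed to 17.1 and 10.5, with KRT8 at 12.5 in the homokaryon and taken as 0 in replicate 2. KRT8 was also taken as 0 in day 2 heterokaryon replicate 1, with 233 in day 2 heterokaryon replicate 2, so the sums are uncertain. CLDN7, KRT19 and CLDN4 lay below replicate 2, at 0.0631, 3.18 and 0 against 2.27, 6.95 and 0.859. EPCAM and OCLN lay above it, at 1.03 and 0.272 against 0.174 and 0.228. Of 7 neural markers, only GFAP and SYP were covered, at 0.991 and 0 in the homokaryon. The part of other cell types in the results was not tested.

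Over 3 libraries, the gene furthest above the fibroblasts was C3. C3, the central complement component, stood at 39.3 in the homokaryon, 0.185 in replicate 1 and 0.0287 in replicate 2, a log2 difference of 5.19 from their mean. BDKRB2, the bradykinin B2 receptor, was at 316 against 9.29 and 10.2, a difference of 4.88. A2M, the broad protease inhibitor alpha-2-macroglobulin, was at 115 against 6.05 and 5.21, a difference of 4.12. In each of these the fibroblast libraries lay together and the homokaryon lay far outside them.

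Type III collagen, COL3A1, reached 2251 in the homokaryon, with 154 and 147 in the fibroblasts and a log2 difference of 3.90. IL1R1, the signalling receptor for interleukin 1, was at 83.3 against 6.96 and 7.95, a difference of 3.32. SOD2, the mitochondrial superoxide dismutase, was at 340 against 36.0 and 35.1, a difference of 3.22. CTSK, the collagen-degrading protease cathepsin K, was at 185 against 20.1 and 21.3, a difference of 3.10. The same pattern held for the adhesion molecule ICAM1, at 54.4 against 6.66 and 7.24, and for the sterol hydroxylase CYP27A1, at 16.2 against 1.89 and 1.29. GTF2IRD2B, at 17.7 against 1.502 and 1.501, has a near-identical copy, so its value is uncertain.

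The genes furthest below included receptors and genes of dividing cells. OXTR, the oxytocin receptor, stood at 0.0500 in the homokaryon, 16.5 in replicate 1 and 16.6 in replicate 2, a log2 difference of -4.06. CENPW, a centromere protein, was at 0.215 against 16.2 and 16.4, a difference of -3.83. OXTR ranged from 1.37 to 9.01 in the heterokaryons and co-cultures, so the homokaryon had the lowest level of the 11 libraries read here.

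FANCA, of the Fanconi anaemia DNA repair complex, was taken as 0 in the homokaryon, with 8.06 and 8.08 in the fibroblasts. RGMB, a co-receptor for bone morphogenetic proteins, was at 9.16 against 72.6 and 73.1. ITGA6, the laminin-binding integrin alpha 6, was at 1.87 against 42.0 and 40.3, and SH2D5 was at 0.607 against 11.5 and 11.98. In ITGA6 the homokaryon value was spread over both isoforms and the fibroblast value sat on 1 isoform, and SH2D5 was also divided differently. WASHC2A, PPIAL4A and PPIAL4C, from -3.98 to -2.70, belong to families of near-identical copies and are uncertain.

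**Figure D2:**
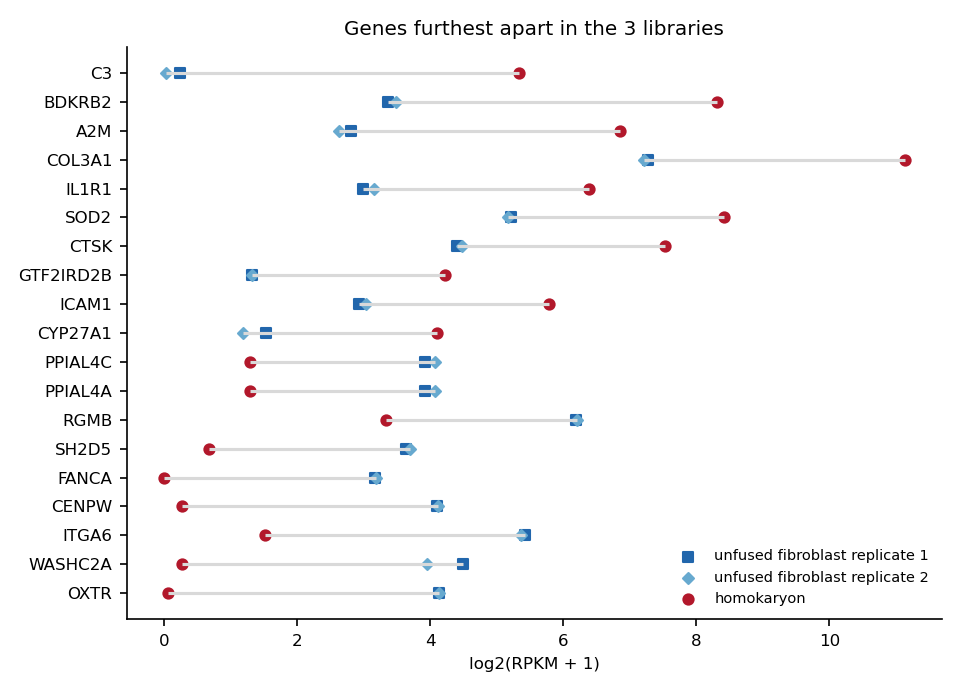
Genes furthest above and below the fibroblast mean among those in the upper 50% of level, with log2(RPKM + 1) in each library. The squares and diamonds of the 2 fibroblast replicates nearly coincide, from OXTR at the bottom to C3 at the top, and the homokaryon circle lies apart.

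Interferon-stimulated genes, which cells switch on when they sense viral nucleic acid or interferon, were all higher in the homokaryon. Of 39 on the list, 11 were covered in the wider set and 9 were at 1 or more, and all 9 were counted as higher, with a median log2 difference of 4.36. IFIT1, a sensor of foreign RNA caps, stood at 113 in the homokaryon and 2.24 in fibroblast replicate 2. IFIT3, its partner, stood at 88.2 and 2.78, and IFIT2 at 22.2 and 0.652. MX2, a dynamin-like antiviral GTPase, was at 22.6 and 0.1501.

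Its relative MX1 was at 243 and 1.398, with the homokaryon value on 1 isoform and the fibroblast value spread over 3. IFITM1, a membrane protein that blocks viral entry and has close relatives, was at 2156 and 123. CXCL10, a chemokine induced by interferon, was at 30.6 in the homokaryon and taken as 0 in replicate 2. The smallest differences were those of the transcription factor IRF1, at 25.3 and 7.72, and of the GTPase GBP1, at 30.2 and 10.6. The remaining covered members, IFNB1 and TLR3, were taken as 0 in both libraries.

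In 8 of these 9 genes the homokaryon was also above every heterokaryon and co-culture library that covered them, and IRF1 was the exception. Over all 2222 genes of the wider set, the homokaryon was the highest of the covering libraries in 14.7% and the lowest in 12%. IFIT1, for example, ranged from 0 to 12.4 in those libraries, and MX1 from 0.712 to 25.5. The tables were scaled separately and those libraries also held mouse cells, so such levels are set side by side as a description only.

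Genes of antigen presentation on MHC class I, which displays peptides of the cell's own proteins, were all higher too. The 6 measured of 17 were all counted, with a median log2 difference of 1.83. HLA-C, which shares sequence with other class I genes, stood at 667 in the homokaryon and 177 in replicate 2. The peptide transporter TAP1, covered by all libraries, was at 68.3 against 21.3 and 19.5, a log2 difference of 1.70 from the fibroblast mean. The immunoproteasome subunits PSMB9 and PSMB10 were at 25.9 and 20.0, against 3.92 and 8.72, and the activator subunit PSME2 was at 230 against 113. The 23 measured subunits of the standard proteasome had a median of -0.41, with none higher and 3 lower.

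Secreted cytokines and chemokines were higher in 10 of 11 measured genes, with a median log2 difference of 2.77. CCL2, which draws monocytes, had the highest level, at 185 in the homokaryon and 8.11 in replicate 2. LIF, an interleukin 6 family cytokine, was at 56.9 and 7.36, and CCL5 at 17.3 and 6.26. The neutrophil chemokines CXCL1, CXCL2 and CXCL6 were at 36.0, 6.26 and 1.80 and were all taken as 0 in replicate 2, as was TNFSF10, at 2.16.

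IL1B, IL6 and CXCL8 were covered by both fibroblast libraries. IL1B, interleukin 1 beta, was at 11.5 in the homokaryon, 0.0430 in replicate 1 and 0 in replicate 2. IL6 stood at 8.91 against 0.933 and 0.448. CXCL8 stood at 6.10 against 0.226 and 0.526. IL11 was the exception of the list, at 4.16 in the homokaryon and 15.3 in replicate 2. Unlike the interferon-stimulated genes, most of these were not at their highest in the homokaryon: only CCL2 and TNFSF10 were, and IL1B was at 43.6 or more in every heterokaryon and co-culture library.

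Targets and components of NF-kB, the transcription factor through which interleukin 1 and bacterial products act, were higher in 5 of 8 measured genes and lower in 1. Beside SOD2 and ICAM1, the prostaglandin synthase PTGS2 was at 6.89 against 0.182 and 0.506. PTX3, a soluble pattern receptor, was at 66.5 against 22.4 in replicate 2, and the subunit REL at 2.48 against 0.435. NFKB1 and NFKB2, at 15.2 and 27.8 against 9.998 and 17.3, were not counted, and NFKBIB was at 0.307 against 2.09. These last 3 genes were divided differently among isoforms between the libraries.

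The JAK-STAT list, which carries cytokine signals to the nucleus, was higher in 4 of 11 genes and lower in none, with a median of 0.32. STAT6, which acts below interleukin 4, was at 114 against 22.1, and STAT5A at 5.82 against 1.5004. The feedback inhibitor SOCS3 was at 51.0 against 15.8, and the kinase PIM1 at 15.5 against 4.26. Receptor and kinase genes differed less: OSMR was at 43.5 and 23.0, JAK1 at 40.5 and 32.3, TYK2 at 22.2 and 19.1, and LIFR at 1.13 and 0.827. SOCS1, SOCS2 and PIM3 were at 1.66, 5.19 and 4.94 in the homokaryon and 2.18, 9.94 and 7.92 in replicate 2.

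Complement genes were higher in 6 of 8 measured genes in the wider set and in 3 of 6 over 3 libraries, C3 among them. C1R, the first protease of the classical pathway, had the highest level, at 570 in the homokaryon and 47.8 in replicate 2. CFB, the protease of the alternative pathway, was at 23.5 and 0.281. C4B, which has a near-identical copy, was at 7.01 against 0.286 and 0.343. SERPING1, the inhibitor of C1 proteases, stood at 33.5 against 4.84 and 5.72, and was divided differently among its isoforms over 3 libraries. C7, at 2.002 in the homokaryon against 0.698 and 0.635, was above both fibroblast libraries by less than 2-fold on this scale, and CD55, at 5.85 against 3.17 and 2.41, was counted in the wider set alone and was divided differently among its isoforms.

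**Figure D3:**
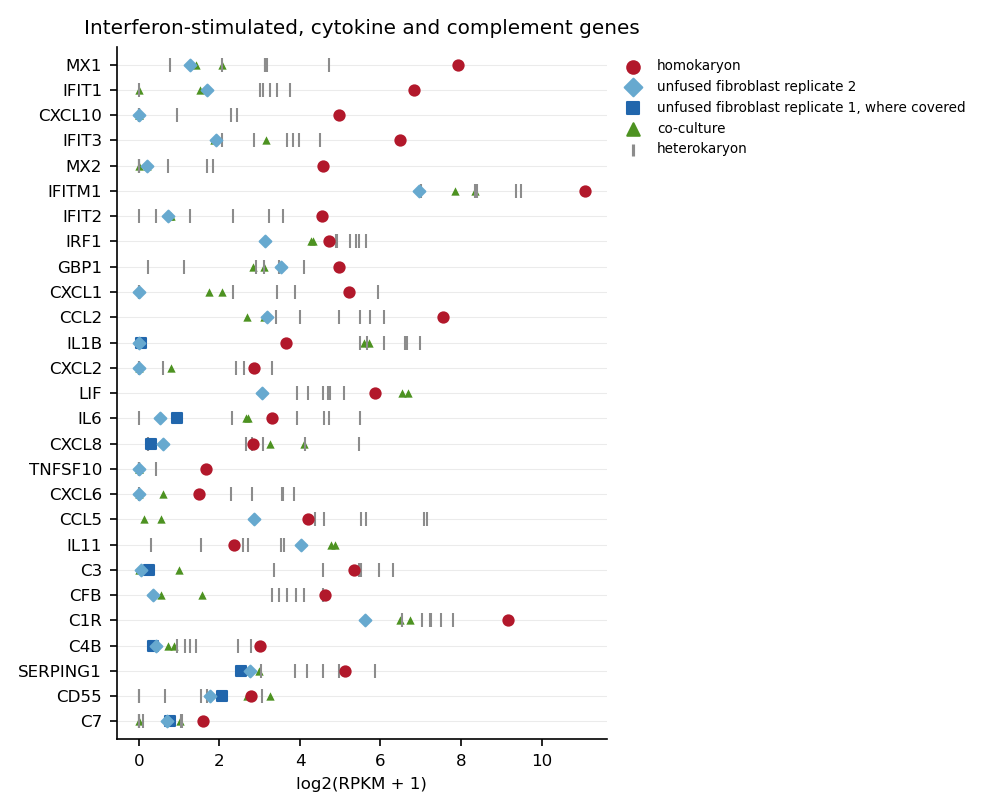
Levels of interferon-stimulated, cytokine and complement genes in each library that covers them, as log2(RPKM + 1). The homokaryon circle lies right of fibroblast replicate 2 in every gene but IL11, and right of all heterokaryon and co-culture marks in 8 of the 9 interferon-stimulated genes at the top.

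Immediate early genes, which answer growth factors and stress within minutes, did not share a direction. Of 8 measured, 4 were higher: EGR1 at 77.2 against 7.21, ATF3 at 12.5 against 1.29, JUNB at 23.8 against 5.36, and ZFP36, which destabilises cytokine mRNA, at 55.7 against 21.2. MYC was lower, at 7.70 against 25.3, and KLF6 was lower, at 20.8 against 46.8. IER3 and JUN, at 112 and 47.6 against 57.4 and 35.8, were not counted. Heat shock genes leaned down: of 5 measured, CRYAB, HSPB1 and HSPE1 were lower, at 17.2, 268 and 43.4 against 71.0, 777 and 88.1. HSPA6 was counted as higher, at 1.86 against 0.334, and DNAJA1 was at 118 against 153.

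Fibrillar and associated interstitial collagens, the main product of fibroblasts, were higher in the homokaryon without exception. All 7 measured of 13 were counted in the wider set and all 5 covered by 3 libraries were counted there, with medians of 1.60 and 1.84. COL1A1, a chain of type I collagen, stood at 5487 in the homokaryon, 2295 in replicate 1 and 2456 in replicate 2. Its partner chain COL1A2 stood at 5054, 1221 and 1304. The type V chains COL5A1 and COL5A2 stood at 210 and 507, against 88.1 and 139 in replicate 1 and 97.7 and 143 in replicate 2.

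COL6A1 and COL16A1 were at 892 and 60.4 against 293 and 19.6 in replicate 2. Each of these collagen genes has a single coding accession, so the division among isoforms does not enter. The homokaryon had the highest level of all covering libraries in 6 of the 7, and COL6A1 reached 1060 in a heterokaryon library. COL3A1 ranged from 73.4 to 252 in the heterokaryons and co-cultures.

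Basement membrane genes were higher in 6 of 10 and lower in none, with a median of 1.53. Of the laminin chains on the list, LAMA4 was at 96.3 against 16.4, LAMB1 at 278 against 81.8, and LAMA2 at 12.1 against 2.21 and 1.88. The linker NID1 was at 99.8 against 39.9, COL15A1 at 19.6 against 4.97, and COL7A1, of anchoring fibrils, at 61.6 against 16.5 and 16.8. The type IV chains COL4A1 and COL4A2, at 266 and 462 against 252 and 398, and the laminins LAMC1 and LAMB2, at 172 and 104 against 142 and 111, stayed within 2-fold of replicate 2. LAMB3, a laminin chain outside the list and named after its values were seen, was lower, at 0.158 against 2.21 and 2.61, and was divided differently among isoforms in the wider comparison.

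Elastic fibre genes leaned up, and ELN was the only member of 10 measured that was counted as lower. MFAP4, a microfibril-associated protein, was at 471 against 75.4, the latent TGF-beta binding protein LTBP4 at 41.3 against 11.5, FBN2 at 59.4 against 19.9, and EFEMP1 at 92.8 against 44.5 and 41.1. ELN, elastin itself, was lower, at 0.769 against 8.02 and 7.74. The crosslinking enzymes LOX and LOXL2 were at 43.6 and 253 against 79.4 and 269, and FBN1, FBLN2 and LTBP2 were also within 2-fold, at 111, 1.02 and 41.4.

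Matrix proteoglycans and glycoproteins were higher in 4 of 11 and lower in none. FMOD, which shapes collagen fibrils, was at 17.4 against 3.95, TNC at 247 against 81.7, BGN at 198 against 97.7, and TGFBI at 1904 against 742 and 748. SPARC and THBS1, at 1405 and 382 against 871 and 459, were within 2-fold, as were THBS2, SDC1, SDC2, SDC4 and GPC1.

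Matrix proteases and their inhibitors went both ways, with 2 of 11 higher and 3 lower, near the shares over all genes. MMP10 and MMP19 were higher, at 8.74 and 52.7 against 0.666 and 17.0, whereas PLAUR, the receptor of the plasminogen activator urokinase, was lower, at 38.7 against 227. TIMP4 was taken as 0 in the homokaryon, with 2.06 in replicate 2. The other inhibitors TIMP1, TIMP2 and TIMP3 stood at 2313, 499 and 158 against 1607, 474 and 107, and MMP1, MMP3 and PLAU at 144, 30.6 and 629 against 199, 23.3 and 447.

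TGF-beta is a growth factor that drives fibroblasts toward matrix production and contraction. Of 9 measured genes on the list tied to it, none was higher and 4 were lower, with a median of -0.99. LTBP4 and TGFBI, given above as higher, are on other lists. TGFB1 itself was at 39.4 against 86.5 and 90.5, a log2 difference of -1.15 from the fibroblast mean. CCN2, also called connective tissue growth factor, was at 41.7 against 104, CCN1 at 90.9 against 190, and ID2 at 8.41 against 19.7. INHBA, ID3, LTBP2 and TGFB2 were at 22.9, 47.1, 41.4 and 1.97 against 46.6, 84.4, 56.0 and 2.50. TGFBR2, at 59.8 against 49.9, was divided differently among its isoforms.

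Contractile genes were higher in none of 8 and lower in 4, with a median of -1.11. TAGLN, an actin-binding protein of smooth muscle and myofibroblasts, was at 641 against 2324. TPM1, tropomyosin, was at 110 against 361 and 382, CNN1, calponin, at 23.7 against 76.7, and ACTG2 at 83.5 against 217. ACTA2, smooth muscle actin and the usual myofibroblast marker, was not counted, at 151 against 170. FLNA, TPM4 and CSRP2 were at 359, 347 and 18.4 against 646, 502 and 20.96.

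Integrins, the receptors that hold cells to matrix, were higher in 2 of 13 and lower in 2, near the shares over all genes of the wider set. ITGA11, a collagen receptor, was at 79.2 against 15.8 and 16.7, and ITGB8 at 1.501 against 0.152. ITGA3, a laminin receptor like ITGA6, was at 44.3 against 146. The fibronectin receptor chain ITGA5 was the most strongly expressed of the list, at 278 against 438, and was not counted.

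Growth factors and receptors were higher in 3 of 13 and lower in 5. HGF, which acts on epithelium, was at 89.5 against 22.5 and 22.8, VEGFA at 42.0 against 11.8, and FGF7 at 4.26 against 0.709. MET, the receptor of HGF, was lower, at 1.63 against 8.20 and 8.02, and IGF2 was lower, at 6.13 against 39.5 and 37.4. The EGF receptor ligand HBEGF was at 2.43 against 11.8, STC1 at 31.6 against 106, and AREG was taken as 0 against 3.23. PDGFRB, STC2 and IGF1R, at 70.3, 142 and 10.7, lay within 2-fold of the fibroblasts.

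Genes that bind insulin-like growth factors or release them were higher in 4 of 8 and lower in 1. IGFBP5 was at 1045 against 220 and 212, IGFBP4 at 1141 against 352, IGFBP6 at 356 against 121, and PAPPA, a protease that cuts IGFBP4, at 48.7 against 6.51. IGFBP3 was lower, at 6.56 against 27.9 and 30.8, and was divided differently among its isoforms. HTRA1, IGFBP2 and IGFBP7 were at 78.0, 2.81 and 200 against 43.9, 1.63 and 222. Of 7 measured genes of WNT signalling (ligand, receptors, antagonist and CTNNB1, beta-catenin), SFRP1 and FZD7 were lower, at 114 and 18.6 against 495 and 39.9, and none was higher.

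Genes of DNA replication were lower in 7 of 9 measured members and higher in none, with a median of -2.01. TK1, thymidine kinase of S phase, stood at 5.29 in the homokaryon and 54.7 in replicate 2. MYBL2, a transcription factor of cycling cells, stood at 0.365 and 13.9. The helicase subunit MCM3 was at 10.3 against 29.5 and the polymerase subunit POLD1 at 0.0629 against 3.29.

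CDC45, which acts with that helicase, and PRIM1, a primase subunit, were taken as 0 in the homokaryon, with 9.96 and 1.36 in replicate 2. PRIM1 was at 0.449 in replicate 1 and was not counted over 3 libraries. The ligase LIG1, at 7.69 against 13.4 and 14.8, and the cyclin CCNE1, at 3.91 against 4.40, were within 2-fold.

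Genes of mitosis and G2 were lower in 7 of 8 and higher in none, with a median of -2.33, and 4 of the 7 were taken as 0 in the homokaryon. TOP2A, the topoisomerase of dividing cells, was at 0.852 against 11.2 and 8.54, and the CDK subunits CKS1B and CKS2 were at 12.9 and 7.76 against 48.6 and 41.9. Cyclin A2 (CCNA2), the checkpoint genes MAD2L1 and BUB1B, and the centromere histone CENPA were taken as 0 in the homokaryon, with 3.53, 4.13, 8.35 and 4.84 in replicate 2. CENPE was at 0.289 against 1.24. MKI67, the common proliferation marker, is not on this list; it was at 0.407 against 28.8 and was divided differently among isoforms. The homokaryon was below every other covering library in 4 of 9 replication genes (44.4%) and 3 of 8 mitosis and G2 genes (37.5%). These included CCNE1, MCM3, POLD1, CKS1B, TOP2A and MAD2L1. Over all genes of the wider set this share was 12%. In MYBL2 and TK1 another library was lower: MYBL2 was 0 in co-culture replicate 1 and TK1 3.23 in day 3 heterokaryon replicate 1.

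Of the inhibitors of cyclin-dependent kinases on the lists, CDKN1C was the only member covered, and it was at 10.4 against 0.812 and 0.411. Among genes of the answer to DNA damage, DDB2 was at 49.4 against 18.0 and 17.8, MDM2 at 20.0 against 9.05, and GADD45A at 18.5 against 20.3. Among histones, H2AX and H2AZ1 were lower, at 15.1 and 61.9 against 41.2 and 170, H4C3 was taken as 0 against 1.07, and H2AC6 was higher, at 42.9 against 20.0.

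**Figure D4:**
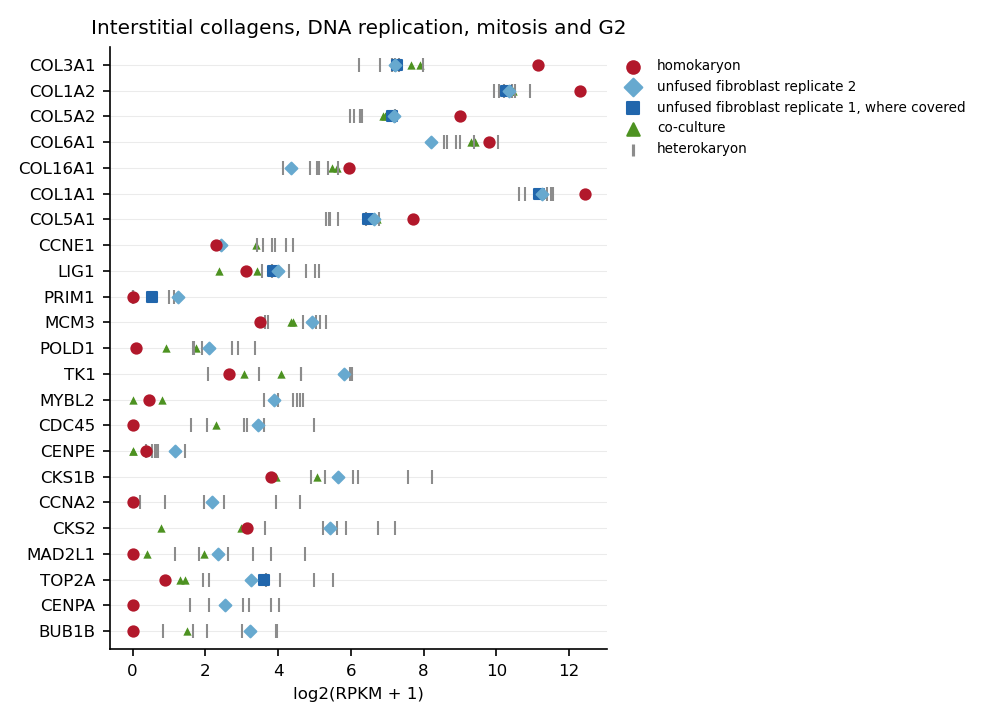
Levels of interstitial collagens, then of DNA replication, mitosis and G2 genes, as log2(RPKM + 1) in each library that covers them. The homokaryon circle lies right of the fibroblast marks in all 7 collagens and left of them in the replication and mitosis genes drawn.

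Metabolic and housekeeping lists had medians smaller in size than the replication and mitosis lists, but some glycolysis genes differed by more than 2-fold. Glycolysis and hypoxia genes had a median of -0.52: ENO1, enolase, was at 386 against 1161, PFKP, platelet phosphofructokinase, at 26.5 against 120, PFKL at 17.2 against 38.3, and ENO2 at 10.9 against 24.6. GAPDH was within 2-fold, at 2910 against 4628. In 8 of these 15 genes (53.3%) the homokaryon was the lowest of all covering libraries, against 12% over all genes. Oxidative phosphorylation genes had a median of 0.42, with COX7B, NDUFB5 and UQCRC2 higher of 16, near the share over all genes, at 14.03, 20.96 and 68.4 against 2.32, 8.07 and 30.4. NDUFB5 was divided differently among isoforms.

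Genes of defence against oxidants and iron were higher in 7 of 18 and lower in none. The ferritin chains FTL and FTH1 were at 10753 and 3553, with FTL at 4870 and 4939 in the fibroblasts and FTH1 at 1076 in replicate 2. HMOX1, which breaks down haem, was at 43.8 against 12.9, catalase (CAT) at 61.5 against 22.9, GCLC, of glutathione synthesis, at 15.3 against 3.07, and GPX3 at 11.2 against 4.87. The seventh was SOD2. Lysosomal genes were higher in 5 of 18 and lower in 2. Beside CTSK these were GAA at 39.4 against 9.01 in both fibroblast libraries, HEXA at 103 against 39.8 and 39.5, PSAP at 822 against 404, and GLA at 41.8 against 25.1 and 20.1, which was not counted over 3 libraries. GAA was divided differently among its isoforms over 3 libraries. NPC1, a cholesterol transporter, was lower, at 9.34 against 20.9 and 20.6.

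Cholesterol synthesis genes were counted in neither direction in any of 9 measured, with a median of 0.22. Ribosomal protein genes had a median of 0.16, and of 30 measured, RPL31 was counted as higher, at 711 against 402 and 342, and RPL28 as lower, at 170 against 360 and 367. Over 3 libraries RPL31 was not counted, and RPL28 was divided differently among isoforms.

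**Figure D5:**
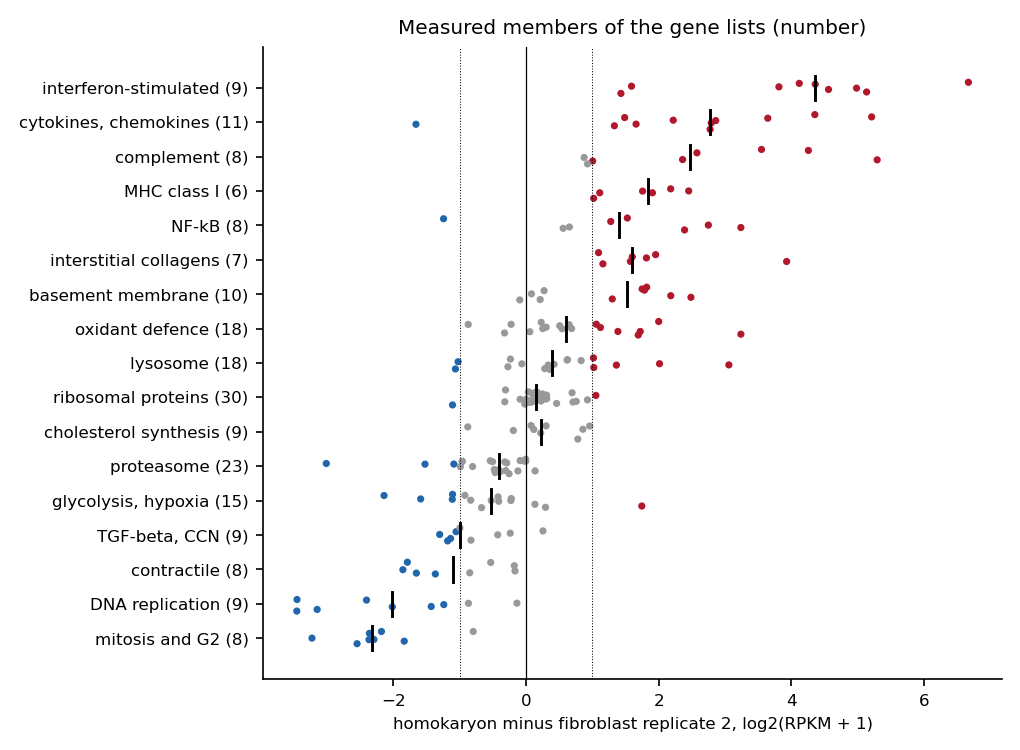
Differences of log2(RPKM + 1) between the homokaryon and fibroblast replicate 2 for the measured members of 17 lists, 1 point a gene, with the median as a black bar and dotted lines at 2-fold. Medians run from 4.36 for interferon-stimulated genes to -2.33 for mitosis and G2, and those of ribosomal and cholesterol genes lie near 0.

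Some genes furthest from replicate 2 in the wider set belong to none of these lists. AKR1C1, an aldo-keto reductase of steroid metabolism with close relatives, was at 199 against 9.66, and the transcription factor SOX4 at 59.7 against 2.95. SEMA7A, a membrane-anchored semaphorin, was at 4.52 against 117. NT5E, the ecto-nucleotidase CD73, was at 18.4 against 200, and PHLDA2 at 6.30 against 63.4. The splicing factors SRSF2 and SRSF3 were at 6.24 and 4.49 against 50.8 and 38.6.

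Values of 0 need caution. EIF4A1, a translation factor that every cell uses, was taken as 0 in replicate 2, at 316 in the homokaryon and at 476 or more in every heterokaryon and co-culture library. DHX9, a helicase, was taken as 0 in the homokaryon and stood at 28.4 in replicate 2. A gene absent from a table may therefore be a failed estimate, and no fold is printed for any single one of them. Such genes do enter the counts and the medians of the lists. Also taken as 0 in the homokaryon were SERPINB2, KRTAP2-3 and FABP5, with 30.4, 44.7 and 23.1 in replicate 2. Cytoplasmic gamma actin, ACTG1, was at 120 against 2754, with the homokaryon value split about evenly over both isoforms and the replicate 2 value all on 1. Of the 384 lower genes, 94 were taken as 0 in the homokaryon, and of the 394 higher genes, 50 were taken as 0 in replicate 2.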

How the data were processed

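Per the labels, poly-A RNA was sequenced on an Illumina protocol and the submitters' processing notes name the builds hg19 and mm10. No aligner is named in the sources used here. The deposited tables pair RefSeq transcripts with single values. Their unit is not stated: the deposited values have the form of RPKM, and RPKM, FPKM and TPM cannot be told apart. Each table holds 10000 distinct values, lists no 0, and stops at its own accession. Human NM_ accessions before that point and missing from a table were taken as 0, and later ones as not covered.

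Accessions of 6 digits that begin a listed accession of 9 digits were listed in no table (0 of 147, against 114 of 134 others in the same range), so their genes, ACTB among them, were not covered. Accessions were named with the human RefSeq table or, for 64, GENCODE 29, and 139 genes whose accession lies within 2 of one without a name were set aside. Coding transcripts were summed per gene with Python 3.11.15 and pandas 2.3.3. Genes at 1 or more in a library were kept, and differences taken on log2(RPKM + 1). A gene is called divided differently where the share of its leading isoform differs by 0.3 or more.

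Members and the 42 gene lists were chosen with earlier results of these data known. Named are the 10 genes furthest each way over 3 libraries and the 15 furthest each way in the wider set, among counted genes in the upper 50% of level, and of each list described the counted members with up to 6 further ones of highest level (all, for lists of 12 or fewer). Counting was tried on simulated data with less spread than between the fibroblast replicates. The planted changes were larger than 2-fold and lay in genes of higher level. Changes near the threshold, weak genes and false values of 0 were therefore not tested. Alternatives were the pseudocount (0.1 and 5), the filter (none and 5), the scaling, the isoform summary, partial coverage, a fold of 3 and leaving out each fibroblast replicate. Some genes that the rule names are not reported here. A search of promoter sequences for motifs was not run. Precision is limited by the single homokaryon library, and no interval could be given.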

Additional observations from a re-analysis of the deposited data

Results flagged for a closer look

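The tables of the unfused fibroblasts hold a signal outside the human transcripts that the comparisons did not use. The table of replicate 1 lists 12219 values on accessions that are not human coding accessions, 12044 of them with at most 2 decimals, against 188 such values outside the human accessions in the homokaryon table and 260 in that of replicate 2. The table of replicate 3 lists 8070 values, none on a human accession, and was left out of every comparison.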

How the results depend on the processing

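No test was possible, so only counts and values were compared between settings. With a pseudocount of 5 the counts over 3 libraries were 50 higher and 41 lower, and in the wider set 185 and 183. At a fold of 3 they were 57 and 45, and 197 and 176. Genes covered in part gave 442 and 414 of 2484, and 1021 and 925 of 4588. With a filter of 5 or more, 77 were higher of 457 and 262 of 1554. Genes with a single coding accession, chosen after seeing the data, gave 260 higher of 1464. Between the fibroblast replicates, 4 genes were 3-fold apart, and 5 were 2-fold apart with a filter of 5. Leaving out a fibroblast replicate gave from 136 to 139 higher and from 126 to 128 lower. Scaling to the median gave 102 higher and 122 lower over 3 libraries. No paired analysis was possible because the homokaryon is a single library and its label carries no replicate number. The other settings, among them 4 more chosen after seeing the data (isoforms divided differently or genes at 0 left out, genes near an unnamed accession kept, and short accessions that begin a longer one taken as 0), stayed within 1.5 times of the counts in the report. No named gene had its sign reversed, and 112 of 711 values of named genes under another setting moved by more than a replicate spread. For genes named over 3 libraries this was the spread of the gene itself between the fibroblast replicates. For genes named in the wider set it was the standard deviation of the replicate difference over all genes of the 3-library set, 0.35.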

Other observations

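Some groups of genes outside the lists were picked after their values in the wider set had been seen, so their counts are a description. Genes of polyamine metabolism stood on both sides of fibroblast replicate 2. ODC1, which makes putrescine, was at 19.0 in the homokaryon against 84.5, the spermidine synthase SRM at 55.3 against 167, and AMD1 at 0.245 against 4.10. SAT1, which starts the breakdown of polyamines, was at 78.4 against 6.14, and OAZ2 was within 2-fold, at 87.7 against 63.3. Genes that act on retinoids and carbonyls were higher in 6 of 8 and lower in 1. Over all genes of the wider set, 17.7% were higher and 17.3% lower. CRABP2, which carries retinoic acid, was at 41.6 against 5.15, and ALDH2 at 125 against 28.4. CRABP2 was divided differently among isoforms.

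Proteins that link actin to membrane or adhesion sites were lower in 8 of 10 and higher in none. FLNC was at 66.8 against 403, ZYX, zyxin, at 164 against 647, MSN, moesin, at 225 against 708, and FSCN1, fascin, at 68.4 against 164. Of 6 genes that process collagen, PCOLCE, an enhancer of procollagen cleavage, was at 620 against 154, and SERPINH1, the collagen chaperone, at 669 against 332. P4HB and PLOD1, which hydroxylate collagen, were at 942 and 342 against 744 and 266 in replicate 1 and 760 and 296 in replicate 2. Of 14 genes of fatty acid oxidation, 4 were higher and 1 lower: ECH1 was at 97.2 against 17.8, CPT1A at 41.1 against 15.5, and SLC25A20 at 23.5 against 9.87 and 8.62.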
